A study of Rattus norvegicus with 6 samples.

Results

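The nonmuscle myosins and the kinases, phosphatase and small GTPases that govern them were examined in NRK-52E, an established epithelial cell line from rat kidney tubules. The set was chosen by gene symbol. Of 10 genes named in it (Myh9, Myh10, Myl6, Myl12b, Mylk, Rock1, Rock2, Ppp1r12a, Rhoa and Rhob), 9 had a probe set paired with that symbol alone, out of 14217 genes on the array, and they were read by 17 probe sets. Every culture received 10 ng/mL of TGF-β1 for 24 h, a cytokine that gives epithelium mesenchymal features. The shAMPKα2 group (3 arrays) had lentiviral hairpin RNA directed at AMPKα2, a catalytic part of AMP-activated protein kinase, and the shCtrl group (3 arrays) had control lentivirus. Cultures lacking TGF-β1 were not analysed here, so every value below describes cells already under the cytokine, and the arrays of a group are called biological replicates in the labels. In RNA from whole cultures, a change in the makeup of the culture and a change of RNA per cell cannot be told apart.

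Nonmuscle myosin II is the motor that pulls on actin filaments outside muscle. Each motor joins heavy chains, which carry the ATPase and the filament-forming tail, to essential and regulatory light chains, and it is switched on when the regulatory light chain is phosphorylated. RhoA in its GTP-bound form activates the ROCK kinases, which phosphorylate the light chain and also inhibit the phosphatase that removes the mark. In tubule epithelium this pathway sets cell shape, junction tension and cytokinesis, and it is known for its part in stress fibres of cells that take on mesenchymal features.

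Values are deposited log2 expression, so a difference of 1 is a 2-fold difference, and changes are shAMPKα2 minus shCtrl. Over 31042 probe sets the arrays had medians of 6.04 to 6.05 with the AMPKα2 hairpin and 5.82 to 5.83 with the control, while their SDs were 1.76 to 1.82 and 2.17 to 2.19. The median change accordingly depended on the level, from 0.81 among genes at control levels of 5 to 6 to -0.90 at 9 to 10. Each member is therefore set beside the genes whose control level lay within 0.25 of its own, called genes of like level. In limma 12095 genes (85.1%) passed an adjusted p of 0.05, 6199 higher and 5896 lower. Rescaling altered that split: quantile normalization gave 6225 and 4112, cyclic loess 5722 and 4484, and median centring 4969 and 6849. All genes together had a median of 0.05 in the deposited values and of 0.16, 0.09 and -0.17, respectively, once rescaled. Prkaa2, which encodes the targeted AMPKα2, stood at 6.64, 6.76 and 6.49 on the shAMPKα2 arrays and 6.83, 6.79 and 6.89 on the shCtrl arrays, a change of -0.21 (SE 0.09) that did not pass (limma, adjusted p = 0.0552). A knockdown was thus not shown at the RNA level, and groups are named as labelled. Of the epithelial markers, Krt8 and Tjp1 were high on the control arrays (12.49 and 11.93), while Cdh1 and Epcam were low (4.31 and 2.97). Of all 10 epithelial markers, 7 were called higher and 2 lower (Krt8 with -0.25 and Tjp1 with -1.86), with a median change of 0.44 that was 0.02 after cyclic loess, where Cdh1 had -0.11 and Krt8 0.10. Of 8 proximal tubule markers 7 were called higher, with a median of 0.92 over all 8, or 0.41 after cyclic loess. Those 7 had control means from 4.55 (Cubn) to 6.18 (Aqp1), levels at which the median gene rose. The other, Ggt1, at 8.55, had 0.15, which did not pass, and 0.85 after cyclic loess.

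The 2 nonmuscle myosin heavy chains moved in opposite directions, while the regulatory light chain Myl12b rose modestly and Rhoa fell. Of the 9 measured members, 2 rose (Myh9, Myl12b), 4 fell (Myh10, Rock2, Ppp1r12a, Rhoa) and 3 did not pass (Mylk, Rock1, Rhob). The 6 that passed are 66.7% of the members, against 85.1% of all genes, so the count alone does not mark the set. Groups did not overlap in the same number of members, 6 of 9, against 87.1% of all genes. A change of 2-fold or more occurred in 3 members, 1 higher and 2 lower, or 33.3% against 30.2% of all genes. The median change of the members was 0.07, beside 0.05 for all genes, but these 2 sets differ in level. The median control level was 9.61 for the members and 6.99 for all genes. Genes at control levels of 9 to 10 had a median change of -0.90. With quantile normalization or cyclic loess the members split 3 higher to 3 lower, since Rhob then rose and the main probe set of Rock2 no longer passed.

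**Figure D1:**
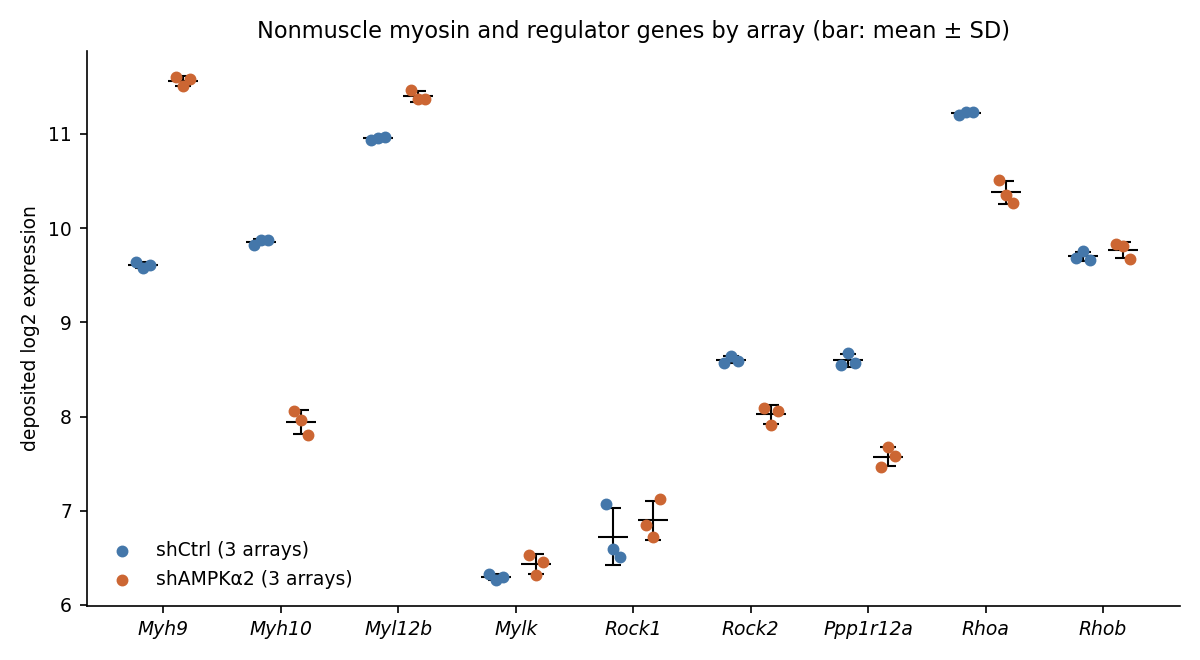
Deposited log2 expression (vertical axis) of the 9 measured members on each of the 6 arrays, with the mean ± SD of each group of 3. Myh9 and Myl12b lie higher and Myh10, Rock2, Ppp1r12a and Rhoa lower on all 3 shAMPKα2 arrays, while the groups overlap for Mylk, Rock1 and Rhob.

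Myh9 encodes the heavy chain of nonmuscle myosin IIA, the isoform most tied to contractile force at the cell edge. It read 11.60, 11.50 and 11.58 on the shAMPKα2 arrays and 9.64, 9.58 and 9.61 on the shCtrl arrays. Every shAMPKα2 array stood far above every control array, and the arrays within a group differed little. The mean went from 9.61 ± 0.03 (SD, n = 3) to 11.56 ± 0.05, a rise of 1.95 (SE 0.08, limma, adjusted p = 7.31e-09), which is 3.87-fold. Only 13 of 14217 genes rose more. Genes of like level went the other way, with a median change of -0.93 over 742 genes, and the change of Myh9 was above that of each of them. A further probe set, annotated with the symbol Myh9 in 2 gene entries and so not counted, had a control mean of 6.93 and rose by 1.65 (limma, adjusted p = 2.22e-07). For the main probe set, quantile normalization put the rise at 2.46, cyclic loess at 2.55 and median centring at 1.74.

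Myh10 encodes the heavy chain of nonmuscle myosin IIB, the slower isoform that holds tension longer. Its single probe set read 8.06, 7.96 and 7.80 on the shAMPKα2 arrays and 9.82, 9.87 and 9.87 on the shCtrl arrays. All 3 shAMPKα2 arrays lay below the controls by more than the spread of either group. Myh10 fell by 1.92 log2 units (SE 0.09; limma, adjusted p = 1.74e-08), from 9.86 ± 0.03 (SD, n = 3) to 7.94 ± 0.13. Genes of like level had a median change of -0.89 (n = 618), so Myh10 lay 1.03 below them, at percentile 9.87 of their changes. Its change shrank to -1.20 under quantile normalization and to -1.19 under cyclic loess, and passed in both. Dividing-cell markers moved with it: all 10 (Mki67, Ccna2 and others) fell, and their mean per array was 9.86 to 9.90 with the control and 7.11 to 7.13 with the AMPKα2 hairpin; their part in the result was not tested.

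The promoters of the heavy chain genes are shown because these were the members whose readings moved furthest apart. Each line gives the 250 bases before the transcription start in RefSeq (assembly GRCr8, gene strand), with CCAAT boxes, searched as CCAAT on both strands, in capitals. The first region is chr7:111304964-111305213 on the minus strand, at the outer of 2 listed starts of Myh9. The second is chr10:53893014-53893263 on the plus strand, at the 1 listed start of Myh10, which is not the outer end of that gene.
Myh9: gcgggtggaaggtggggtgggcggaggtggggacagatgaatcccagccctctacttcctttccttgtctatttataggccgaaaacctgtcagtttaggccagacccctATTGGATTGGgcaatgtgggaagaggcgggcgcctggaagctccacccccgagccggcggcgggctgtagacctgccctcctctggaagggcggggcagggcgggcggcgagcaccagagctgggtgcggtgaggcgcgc
Myh10: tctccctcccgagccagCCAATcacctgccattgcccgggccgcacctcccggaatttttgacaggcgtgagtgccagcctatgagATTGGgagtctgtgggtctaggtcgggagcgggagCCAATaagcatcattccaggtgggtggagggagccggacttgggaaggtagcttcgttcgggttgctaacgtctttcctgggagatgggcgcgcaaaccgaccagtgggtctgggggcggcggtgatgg
Both windows were GC-rich, at 65.6% for Myh9 and 62.0% for Myh10, where the median of 33465 rat promoters was 51.2%. The Myh9 window held 2 adjoining CCAAT boxes, beginning 140 and 135 bases before the start, and the Myh10 window held 3, at 233, 164 and 129 bases. A CCAAT box was found in 6 of the 10 members' windows and in 34.0% of all promoters. Of these 10 windows, those of Myh9, Myl12b and Rhob lie at the outer end of the gene, and those of the other members do not. The GC box GGGCGG, on either strand, was in 7 of 10 members (4 copies in Myh9, 1 in Myh10) and in 30.5% of all promoters. The CArG box, by which serum response factor binds genes downstream of RhoA and actin, was matched in 0 of 10 members and in 1.5% of all promoters. Both heavy chain windows thus held CCAAT and GC boxes, but in different numbers. Of all promoters, 9.4% held 2 or more CCAAT boxes and 2.5% held 3 or more. The part of these sequences in the readings was not tested.

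The parting of the heavy chains was also measured within each array, where an offset common to both probe sets cancels. Myh9 minus Myh10 was 3.55, 3.54 and 3.78 on the shAMPKα2 arrays and -0.19, -0.29 and -0.26 on the shCtrl arrays. Such a difference between probe sets does not give the ratio of the transcripts, but its shift of 3.87 does show unequal change. The groups did not overlap, and the exact 2-sided permutation test gave p = 0.1 (adjusted over 3 pairs 0.1), the smallest that 3 arrays against 3 allow. Quantile normalization left a shift of 3.66, and cyclic loess 3.74. Rhoa minus Rhob shifted by -0.91 (exact permutation p = 0.1), from 1.52 ± 0.05 (SD, n = 3) to 0.61 ± 0.07. Rock1 minus Rock2 shifted by 0.76 (exact permutation p = 0.1), but by 0.19 after cyclic loess (exact permutation p = 0.4). It was 2.51 with the most variable probe set of each gene, so its size depends on these choices. A change that follows level does not cancel in such a difference. Genes of like level had medians of 0.00 for Rock1 and -0.79 for Rock2, about as far apart as the shift of 0.76. Those medians were -0.93 and -0.89 for Myh9 and Myh10, and -0.73 and -0.95 for Rhoa and Rhob.

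**Figure D2:**
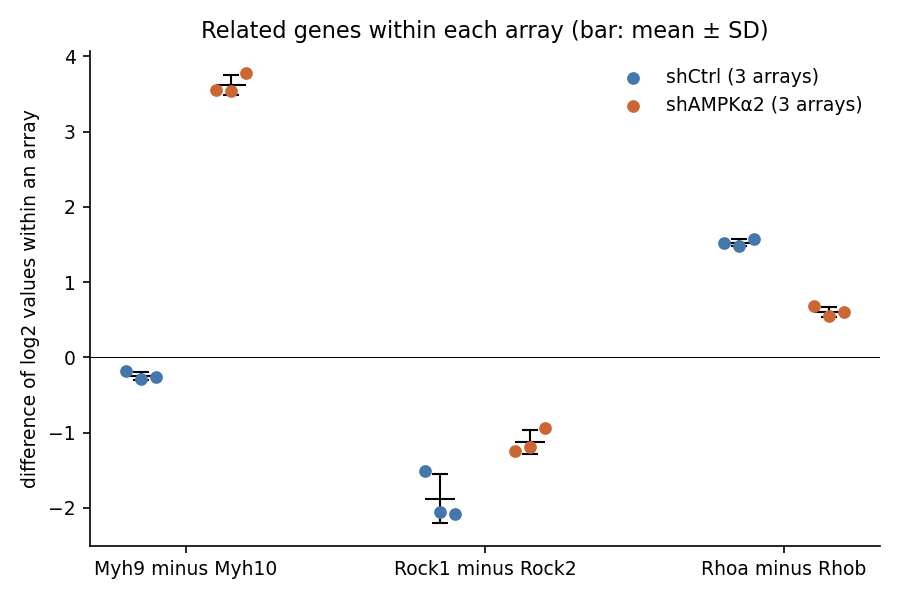
Difference of deposited log2 values between related genes within each array (vertical axis), with the mean ± SD of the 3 arrays per group. Myh9 minus Myh10 moves from near 0 to between 3.54 and 3.78, a larger shift than in the other 2 pairs.

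Of the light chains, Myl12b encodes a regulatory light chain, the subunit on which the kinases act. It read 11.47, 11.37 and 11.37 on the shAMPKα2 arrays and 10.94, 10.96 and 10.97 on the shCtrl arrays. The groups were apart by several times the SD within them. Myl12b rose by 0.45 (SE 0.08, limma, adjusted p = 0.000294), at percentile 96.2 of 266 genes of like level, whose median change was -0.78. It also passed under quantile normalization (0.86), cyclic loess (0.97) and median centring (0.23). Myl6, the essential light chain, had no probe set of its own. The probe set that lists it also lists Myl6b and Myl6l, and stood at 12.60 ± 0.10 (SD, n = 3) and 12.57 ± 0.04, a difference that did not pass (limma, adjusted p = 0.751). It passed after cyclic loess, with 0.34.

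**Figure D3:**
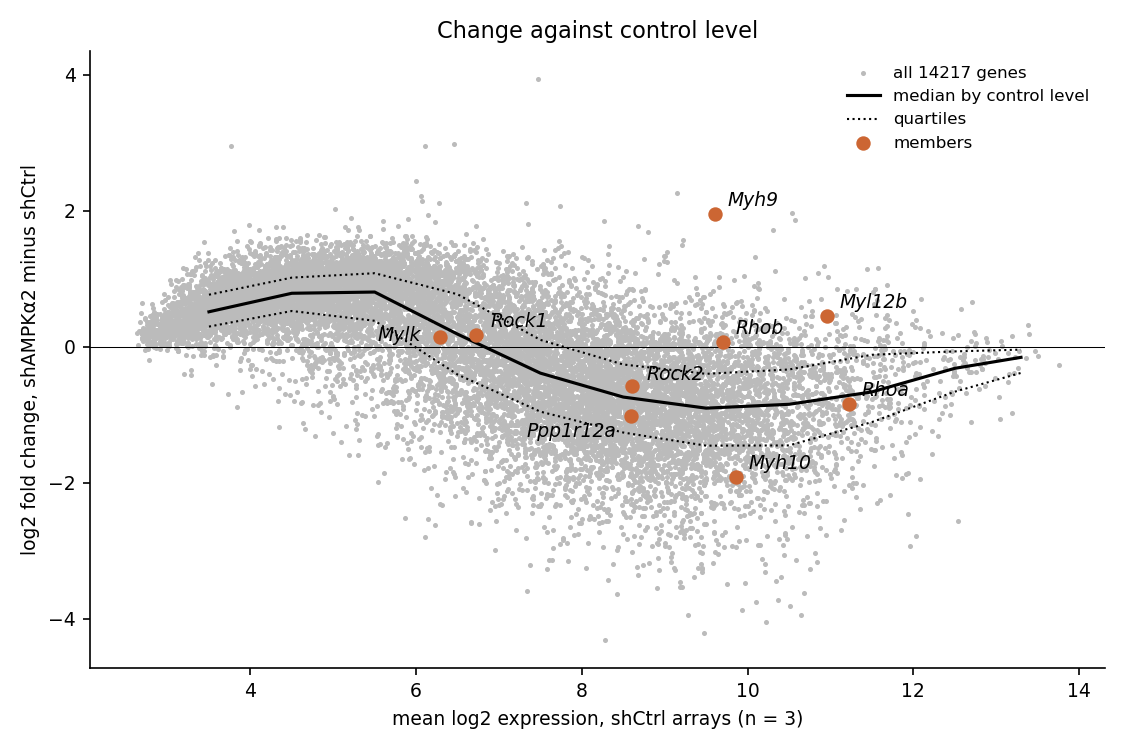
Log2 fold change (vertical axis) against the mean on the shCtrl arrays (horizontal axis, log2) for 14217 genes, with the median and quartiles by control level and the 9 members labelled. By their main probe sets, Myh9, Myl12b and Rhob lie above the upper quartile of their level and Myh10 below the lower, while the other 5 members lie between the quartiles.

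The kinases gave smaller or less certain differences. Rock2 encodes the ROCK kinase that is prominent in muscle and brain and is also found in epithelium. Its main probe set read 8.09, 7.91 and 8.06 on the shAMPKα2 arrays and 8.57, 8.64 and 8.59 on the shCtrl arrays. Each shAMPKα2 array was below each control. It fell by 0.58 log2 units (SE 0.08; limma, adjusted p = 7.30e-05), close to the genes of like level, whose median change was -0.79 (percentile 61.3). Quantile normalization gave 0.12 and cyclic loess 0.09 for this probe set, and neither passed. The other 3 probe sets of Rock2 fell, with changes of -1.28, -2.33 and -0.96 from control means of 8.61, 8.57 and 7.16 (limma, largest adjusted p = 3.74e-05), and all 3 also fell in each scaling. Among probe sets of like level these 3 lay at percentiles 30.2, 4.4 and 25.6. The mean over the 4 probe sets changed by -1.29, and by that rule Rock2 lay at percentile 19.1 of genes of like level. The main probe set, taken for its mean over all 6 arrays, was thus the one with the smallest change, and the 4 changes spanned 1.76 log2 units.

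Rock1, the other ROCK kinase, had a single probe set, which read 6.85, 6.73 and 7.13 on the shAMPKα2 arrays and 7.07, 6.59 and 6.51 on the shCtrl arrays. The groups overlapped, and control replicate 1 stood apart from the other controls. The change of 0.18 (SE 0.15, 95% interval -0.16 to 0.51) did not pass (limma, adjusted p = 0.290), and without that control array it was 0.35 and passed (limma, adjusted p = 0.0279), where leaving out any other array gave adjusted p of 0.164 to 0.735. Mylk, the calcium-calmodulin-dependent myosin light chain kinase, read 6.53, 6.32 and 6.45 on the shAMPKα2 arrays and 6.32, 6.26 and 6.30 on the shCtrl arrays. The ranges overlapped by a narrow margin, at shAMPKα2 replicate 2. Its change of 0.14 (SE 0.09, 95% interval -0.05 to 0.33) did not pass (limma, adjusted p = 0.142), and did with 0.20 when that array was left out (limma, adjusted p = 0.0478, against 0.168 to 0.333 without any other array). The other probe set of Mylk, at a low control mean of 3.54, rose by 0.91 (limma, adjusted p = 0.000256), where probe sets of like level had a median change of 0.49. With the mean of its probe sets Mylk rose by 0.52 (limma, adjusted p = 0.000202). By that rule it lay below the median of genes of like level, at percentile 30.1.

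Ppp1r12a encodes MYPT1, the targeting subunit that brings the phosphatase to myosin and that ROCK inhibits. Its main probe set read 7.47, 7.67 and 7.59 on the shAMPKα2 arrays and 8.54, 8.67 and 8.57 on the shCtrl arrays. The groups lay about 1 log2 unit apart with no overlap. It fell by 1.02 log2 units (SE 0.09; limma, adjusted p = 1.23e-06), at percentile 37.2 of 1064 genes of like level, whose median change was -0.78. The other probe sets did not bear the same size. One with nearly the same mean over all arrays (8.04 against 8.08) had -0.14, which did not pass, another had -0.15, which did not pass, and the last fell by 0.36. With cyclic loess 2 of the 4 rose (0.48 and 0.26) and 2 fell (-0.39 and -0.59), a 2 to 2 split that quantile normalization also gave. With the mean of the probe sets the gene changed by -0.42, which passed (limma, adjusted p = 0.000647).

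**Figure D4:**
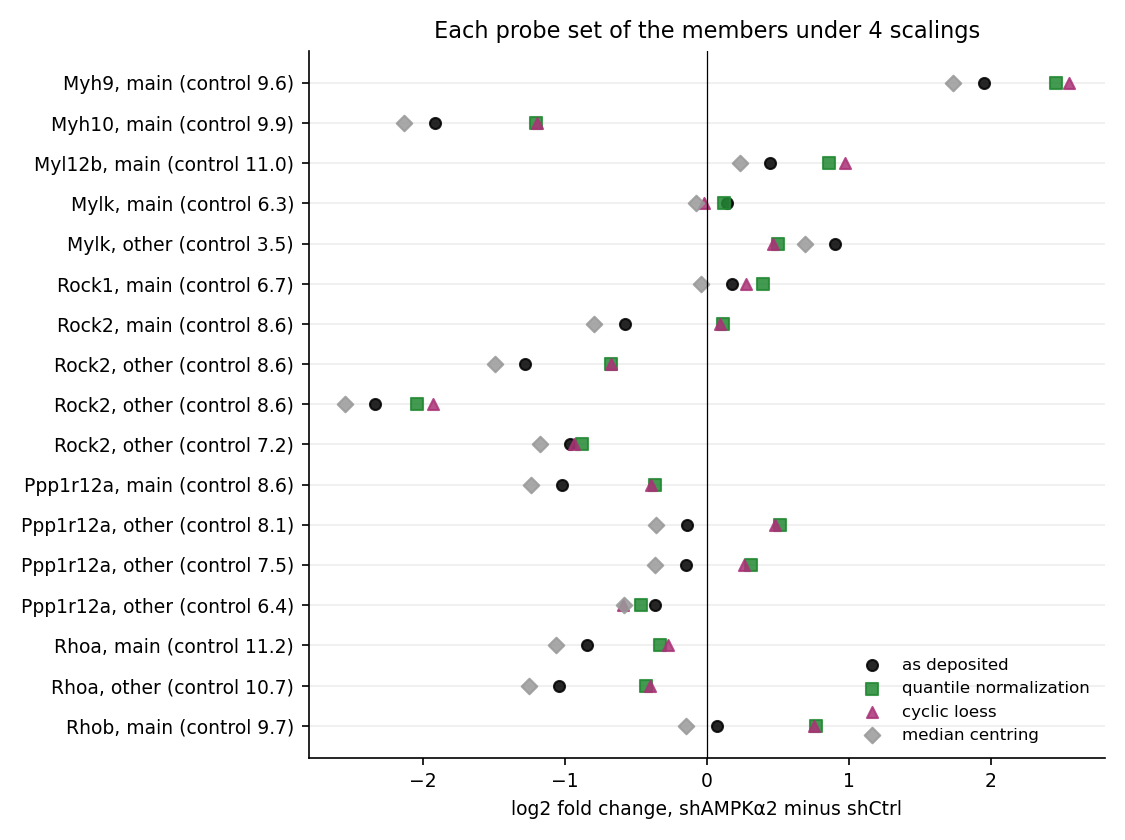
Log2 fold change (horizontal axis) of the 17 probe sets of the members under 4 scalings, with the control mean of each in brackets. The 4 probe sets of Rock2 and of Ppp1r12a are spread out, and Ppp1r12a has probe sets on both sides of 0 after quantile normalization and cyclic loess.

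The small GTPases Rhoa and Rhob differed from each other. Rhoa, the main activator of the ROCK kinases, read 10.51, 10.36 and 10.27 on the shAMPKα2 arrays and 11.21, 11.23 and 11.23 on the shCtrl arrays. Its groups were well separated, with the shAMPKα2 arrays the more scattered. It fell by 0.84 log2 units (SE 0.09; limma, adjusted p = 5.17e-06), and its other probe set fell by 1.04. Genes of like level had a median change of -0.73 (n = 206), which put Rhoa at percentile 44.7 among them. Smaller changes, which passed, came from quantile normalization (-0.33) and cyclic loess (-0.27). Rhob, an inducible relative that sits on endosomes and the plasma membrane, read 9.83, 9.81 and 9.67 on the shAMPKα2 arrays and 9.68, 9.76 and 9.66 on the shCtrl arrays. These ranges overlapped. Its change of 0.07 (SE 0.08, 95% interval -0.11 to 0.26) did not pass (limma, adjusted p = 0.441). Since genes of like level had a median of -0.95 (n = 683), Rhob lay at percentile 90.8 among them, and it rose under quantile normalization (0.77) and cyclic loess (0.76). Median centring gave -0.15, which did not pass.

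Over single probe sets, 12 of the 17 passed, against 81.9% of all probe sets. Of these, 3 were higher and 9 lower, where 47.8% and 34.1% of all probe sets were; 2-fold changes made up 26.2% of all probe sets, and readings of groups did not overlap in 84.2%. Quantile normalization and cyclic loess each gave 6 higher to 8 lower, and median centring 3 to 11. Rock1 was the member with 0 probe sets that passed in any of the 4 scalings.

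The wider RhoA, ROCK and myosin pathway was read through 84 other measured genes of a list of 95. Of these, 21 rose (25%, against 43.6% of all genes), 48 fell (57.1%, against 41.5%) and 15 did not pass. Their median change was -0.59, beside 0.05 for all genes, and the median of the values for genes of like level was -0.63. Compared with genes of like level, 19 of the 84 lay above the upper quartile and 30 below the lower. Quantile normalization turned this into 30 higher and 33 lower, cyclic loess into 30 and 37, and median centring into 15 and 56. Genes that passed in the same direction throughout numbered 12 higher and 32 lower. The share of all genes that did so is not given here, so these counts alone do not mark the pathway. The median control level of the 84 genes was 8.32, and all genes at control levels of 8 to 9 had a median change of -0.74.

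Among 8 other myosin chains and partners, 3 rose, 3 fell and 2 did not pass. Svil, encoding the myosin- and actin-binding supervillin, and Myo18a, an unconventional myosin, fell by 1.31 and 1.17 on the log2 scale. Of the other 4 probe sets of Svil, 1 rose (1.05), 2 fell (-0.29 and -0.32) and 1 did not pass (0.04), and with the mean of its probe sets Svil had -0.17. Of the other 2 of Myo18a, 1 rose (0.80) and 1 fell (-1.72). Myl9, a regulatory light chain typical of smooth muscle, rose by 0.44, and Myl1, a skeletal muscle light chain, by 0.50 from a control mean of 3.57. Neither passed with quantile normalization (0.19 and 0.10) or cyclic loess (0.00 and 0.10), and both lay below the median of their level. Median centring gave 0.22 for Myl9, which did not pass, and without shAMPKα2 replicate 1 it rose by 0.28. Of the remaining relatives, chosen after their values were seen, Myh14, the heavy chain of nonmuscle myosin IIC, fell by 0.72, but had -0.14 with quantile normalization and -0.18 with cyclic loess, neither of which passed. Myl12a, the regulatory light chain closest to Myl12b and likewise chosen after its value was seen, rose by 0.21. Myl12a was at percentile 95.6 of genes of like level, near the place of Myl12b, and had -0.01 after median centring.

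Among 12 other kinases that can act on the light chain, 5 rose, 5 fell and 2 did not pass. Pak2, a p21-activated kinase, fell by 1.94 (SE 0.09, limma, adjusted p = 1.27e-08), and Dapk3, the zipper-interacting kinase, by 1.30. The other 3 probe sets of Pak2 fell too, by 0.48 to 1.76. Cyclic loess reduced these falls to -1.25 for Pak2 and -0.60 for Dapk3. Dapk1, a death-associated kinase, rose by 1.25 (SE 0.14), or 0.66 with cyclic loess, and Mylk2, known as the skeletal muscle light chain kinase, by 1.23 (SE 0.09, limma, adjusted p = 3.14e-07). Mylk2 was at percentile 94.95 of genes of like level, and rose by 1.59 after quantile normalization. The other probe set of Mylk2, at a control mean of 3.48, rose by 0.50, where genes at control levels up to 4 had a median change of 0.52. Among 10 other genes of the phosphatase and its inhibitors, 2 rose, 6 fell and 2 did not pass. Ppp1r14b, a phosphatase inhibitor, fell by 1.87 and Ppp1cc, a catalytic subunit, by 1.63, with -1.22 and -1.01 under cyclic loess. Ppp1r12b and Ppp1r16b, targeting subunits related to Ppp1r12a, rose by 0.88 each from control means of 5.33 and 3.78, where genes of like level had medians of 0.82 and 0.65, and cyclic loess gave 0.42 and 0.40.

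Of 10 other small GTPases of the pathway list, 2 rose, 5 fell and 3 did not pass. Rnd3, a small GTPase that binds and inhibits ROCK1, rose by 0.44 (SE 0.08, limma, adjusted p = 0.000438), at percentile 96.4 of genes of like level, and its other probe sets rose by 0.93 and 0.76. Rhoj rose by 0.98, where genes of like level had a median of 0.84 (percentile 63.7), and by 0.47 with cyclic loess. Rnd1, a relative of Rnd3, fell by 1.85 (SE 0.13), and Cdc42, which governs filopodia and polarity, by 0.98, with a change of -0.44 under cyclic loess. Rnd3 and Rnd1 thus moved in opposite directions in each of the 4 scalings.

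Of 22 regulators of these GTPases, 15 fell, 4 rose and 3 were not past the threshold. Their median change was -1.18, and that of genes of like level -0.85. Cyclic loess gave 13 lower and 6 higher. Racgap1 and Ect2, which place active RhoA at the cleavage furrow, had the largest falls, of 3.81 (SE 0.13) and 2.30 (SE 0.08, limma, adjusted p = 3.50e-09). Both serve cytokinesis, and the 10 dividing-cell markers fell with them, by a median of 2.83; their part was not tested. Arhgdig, a GDP-dissociation inhibitor, rose by 1.16, and Myo9a, a myosin with a GTPase-activating domain, by 0.52, with -0.07 after cyclic loess, which did not pass. Of 22 effectors of RhoA and ROCK, 5 rose and 14 fell, and the median of -0.66 was near the -0.65 of genes of like level. Rhpn2, a rhophilin, and Pkn2, a protein kinase C-related kinase, fell by 2.41 and 1.74, with -1.04 for Pkn2 under cyclic loess. Limk1, the kinase through which ROCK protects actin filaments from cofilin, rose by 1.01 (SE 0.10, limma, adjusted p = 3.59e-06), where genes of like level had a median of 0.83 (percentile 68.1), and by 0.52 with cyclic loess. Rhpn1, another rhophilin, rose by 0.80, or 1.36 with cyclic loess.

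**Figure D5:**
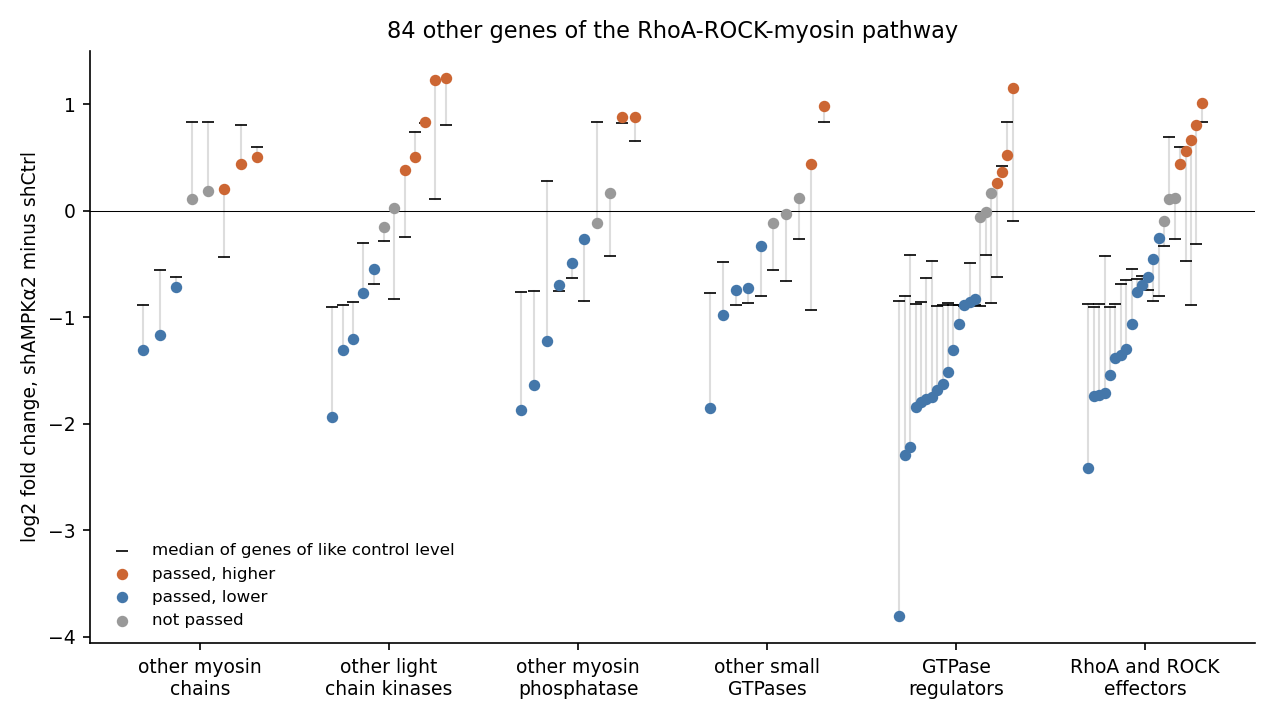
Log2 fold change (vertical axis) of 84 other pathway genes by role, coloured by call, with a dash for the median change of genes of like control level. Racgap1, at -3.81, is the lowest point, and most regulators and effectors lie below 0, as do most of their dashes.

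Markers of other cell types were read on the same arrays. All 9 fibroblast markers rose, and their mean per array lay between 5.63 and 5.67 with the control and between 7.16 and 7.25 with the AMPKα2 hairpin. Their median change was 1.11, or 0.83 after cyclic loess. Col1a1, a collagen chain, rose by 2.98 and by 3.58 after cyclic loess, while Dcn and Lum, at control means of 5.05 and 2.83, had 0.73 and 0.57, and 0.16 and 0.33 after cyclic loess. Of 9 smooth muscle markers 6 rose and 2 fell, with a median change of 0.48, or -0.004 after cyclic loess. The 2 that fell were Smtn (-0.92) and Synpo2 (-1.10), with -0.26 and -0.39 after cyclic loess. Tagln, encoding the actin-binding transgelin, rose by 3.94, more than any other gene, and Acta2, smooth muscle actin, by 1.48, and both rose more after cyclic loess (4.65 and 2.17). Myh11, the defining heavy chain of that tissue, stood at 5.15 on the control arrays and 5.25 with the AMPKα2 hairpin and did not pass, but had -0.49 and passed after cyclic loess (limma, adjusted p = 0.0126). Endothelial markers rose in 6 of 7 and leukocyte markers in 6 of 7. Like the dimmer fibroblast markers, those of these lists apart from Cd14 had control means at which the median gene rose, such as 2.96 for Pecam1 and 4.14 for Ptprc. The leukocyte marker Cd14 stood at 10.78 on the control arrays and fell by 1.70. Eng and Lyz2, at control means of 6.07 and 6.11, rose by 1.15 each, with 1.15 and 1.18 after cyclic loess. The median changes after cyclic loess were 0.29 for the endothelial list and 0.41 for the leukocyte list. The part of these lists in the rise of Myh9 was not tested.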

How the data were processed

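RNA of 6 cultures was hybridised to Affymetrix rat arrays, 3 per group. The authors deposited log2 expression for every probe set of each array; background correction, summarisation and normalization are not given in the sources used here. Of 31099 probe sets, 57 array controls were left out, and 20826 of the rest had 1 gene symbol in the platform annotation, 436 several and 9780 none. Each gene took its brightest probe set by average. RefSeq (GRCr8) matched 20758 of the 20826 by Entrez number, with 0 symbols changed; the entry of the main Myh9 probe set was named by the platform alone. Promoters of all 10 members were matched by symbol.

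The contrast was fitted in R 4.3.3 with limma 3.58.1 (lmFit, eBayes, 2-sided, no covariate, Benjamini-Hochberg over all genes or all probe sets, threshold 0.05). Related genes were compared by exact permutation. The fourth pair planned, Myl6 and Myl12b, could not be formed. The precision is limited by the number of arrays, and p-values measure only the spread between these cultures. The limma fit was tried on simulated arrays, where few genes changed and change did not follow level. The permutation step was tried on a made-up example. Scalings, probe set rules and comparisons with genes of like level were not simulated. The members, lists and tests were chosen with earlier results of these data known. Named are all members, Prkaa2, and, for each pathway role, the 2 highest and 2 lowest changes past the threshold, where there were that many. Alternatives were quantile normalization, cyclic loess (3 iterations), median centring, a low-level filter, other probe set rules, variance models, array weights, a replicate block, a threshold of 0.01 and leaving out each array. Same-numbered arrays of the groups were checked for pairing.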

Additional observations from a re-analysis of the deposited data

How the results depend on the processing

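Over 17 alternatives the count of members that passed stayed at 6 or 7, and Myh9, Myh10, Myl12b, Ppp1r12a and Rhoa kept direction and call in each. The count of members with a 2-fold change, 3 as deposited, was 2 with quantile normalization or cyclic loess and 4 with median centring. It was 5 with the most variable probe set and 2 to 3 when an array was left out. Signs turned for Mylk (-0.020 after cyclic loess, -0.074 after median centring), Rock1 (-0.040 after median centring), Rock2 (0.12 after quantile normalization, 0.091 after cyclic loess), Rhob (-0.15 after median centring), Myo9a (-0.066 after cyclic loess), Myl12a (-0.011 after median centring) and Myh11 (-0.31 after quantile normalization, -0.49 after cyclic loess, -0.11 after median centring). Of these turned values, that of Myh11 after cyclic loess passed the test. The shared Myl6 probe set (-0.18 after median centring) and, as given above, Cdh1, Krt8 and 2 probe sets of Ppp1r12a also turned. So did the proximal tubule markers Cubn (-0.10 after cyclic loess) and Ggt1 (-0.069 after median centring). Prkaa2, which did not pass as deposited, passed with -0.42 after median centring, and with -0.21 when the lowest 25% of genes were left out or probe sets were averaged. Leaving out an array gave -0.27 to -0.14 for Prkaa2, and it passed without shAMPKα2 replicate 2. Over all 17 alternatives its change ranged from -0.42 to -0.05, with adjusted p of up to 0.636 (limma).

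Same-numbered arrays did not deviate together (r of -0.02, 0.01 and -0.10 over genes), so the numbers were not taken as pairs; with the replicate number as a block 6 members passed, as without it. No detection calls came with the values used here, and no limit of detection was set for low probe sets such as the dimmer one of Mylk.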
